A study of Mus musculus with 18 samples.

Results

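Cartilage matrix genes and the Sox trio are the 10 genes *Acan*, *Comp*, *Matn1*, *Matn3*, *Matn4*, *Hapln1*, *Lect1*, *Sox5*, *Sox6* and *Sox9*. They were chosen by symbol, as the rows of the deposited count tables that carry these names. All 10 were found in each of the 3 tables, among 20202 genes present in at least 1 table and 15853 present in all 3. Their messenger RNA was followed by RNA sequencing through 6 cell populations of 3 libraries each, which makes 18 libraries.

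The bone and bone chip populations came from Col2.3GFP transgenic mice, in which a fragment of the *Col1a1* promoter drives green fluorescent protein (GFP) in maturing cells of the osteoblast lineage. GFP+ (hi) cells, sorted for bright fluorescence and labelled as osteoblasts, were set against GFP- cells, which the labels call heterogeneous. One pair was sorted straight from long bone. The other was sorted from cultures grown from bone chips under osteogenic differentiation. The remaining pair was GFP+ osteoblasts differentiated from mouse embryonic stem cells (ESC-OB GFP+, also sorted as GFP+ (hi) by their labels), set against embryonic stem cells (ESC). A label gives osteogenic differentiation as the treatment of the ESC too, but their titles and the paper treat them as undifferentiated cells. All 6 populations carry the transgene as far as the methods tell. Age, sex and strain of the mice, the number of animals or ESC lines, and whether replicates came from separate animals or cultures are not given in the sources used here, so p-values measure only the spread between these libraries.

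Cartilage is laid down by chondrocytes, which embed themselves in a gel of proteoglycan held by a network of type II collagen fibrils. Aggrecan (*Acan*) is the large proteoglycan of that gel. Its chondroitin sulfate chains draw in water, and link protein (*Hapln1*) locks it onto hyaluronan. Matrilins (*Matn1*, *Matn3*, *Matn4*) and cartilage oligomeric matrix protein (*Comp*) are adaptor proteins that bridge the fibrils and the proteoglycan, and *Lect1* encodes chondromodulin, which keeps blood vessels out of cartilage. Sox9 is the transcription factor that chondrocytes need to form, and Sox5 and Sox6 are related factors that work beside it on the genes of the matrix. Osteoblasts, in contrast, make a matrix of type I collagen and are marked by *Col1a1*.

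The stretches of DNA before the start sites of 7 members are shown because they include genes with the same and with opposite directions in the 2 sources. *Lect1*, *Matn3*, *Matn1* and *Sox5* were lower in GFP+ (hi) cells of bone and of bone chips. *Acan*, *Matn4* and *Sox6* were lower in bone and higher in bone chips, where the calls of *Acan* and *Sox6* depend on how libraries are scaled. Each line gives the 250 bases before an annotated start site in RefSeq on build GRCm38.p6, read along the gene's own strand, with the motifs ACAAT and TGTGGT in capitals on either strand (ATTGT and ACCACA on the other). ACAAT is the core that Sox proteins bind and TGTGGT the core that Runx proteins bind, and matches of both can share bases. RefSeq entries were matched for 8 members, *Lect1* under its newer symbol *Cnmd*, with 14 windows. No window was matched for *Comp* or *Sox9*, which the motif counts therefore leave out. *Matn4* has more than 1 window, of which the first is shown, and *Sox6* has 6, of which the fifth is shown because it holds both motifs.
*Lect1* (chr14:79662184-79662433, minus strand): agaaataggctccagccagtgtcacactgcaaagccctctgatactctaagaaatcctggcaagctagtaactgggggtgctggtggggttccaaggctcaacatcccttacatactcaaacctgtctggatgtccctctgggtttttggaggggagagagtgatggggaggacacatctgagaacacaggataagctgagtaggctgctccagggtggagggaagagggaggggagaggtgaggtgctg
*Matn3* (chr12:8947679-8947928, plus strand): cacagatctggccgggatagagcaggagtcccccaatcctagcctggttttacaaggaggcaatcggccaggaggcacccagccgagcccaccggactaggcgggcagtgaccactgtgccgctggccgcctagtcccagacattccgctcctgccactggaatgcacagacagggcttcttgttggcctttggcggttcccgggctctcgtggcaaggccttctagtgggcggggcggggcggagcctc
*Matn1* (chr4:130944135-130944384, plus strand): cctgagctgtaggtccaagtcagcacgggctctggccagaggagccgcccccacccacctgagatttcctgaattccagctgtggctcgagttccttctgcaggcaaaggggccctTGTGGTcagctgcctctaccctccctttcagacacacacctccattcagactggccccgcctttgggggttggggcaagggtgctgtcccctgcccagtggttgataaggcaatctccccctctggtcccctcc
*Acan* (chr7:79052976-79053225, plus strand): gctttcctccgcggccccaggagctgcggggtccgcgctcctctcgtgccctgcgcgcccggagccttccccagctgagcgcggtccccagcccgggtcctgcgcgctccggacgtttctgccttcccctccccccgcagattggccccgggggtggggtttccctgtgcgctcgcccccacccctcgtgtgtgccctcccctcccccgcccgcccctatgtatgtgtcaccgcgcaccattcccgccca
*Matn4*, start 1 (chr2:164405161-164405410, minus strand): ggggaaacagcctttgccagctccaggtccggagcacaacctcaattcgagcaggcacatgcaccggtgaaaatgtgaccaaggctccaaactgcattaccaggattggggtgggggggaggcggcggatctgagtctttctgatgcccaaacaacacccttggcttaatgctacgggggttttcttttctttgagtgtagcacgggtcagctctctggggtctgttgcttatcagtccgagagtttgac
*Sox5* (chr6:143947107-143947356, minus strand): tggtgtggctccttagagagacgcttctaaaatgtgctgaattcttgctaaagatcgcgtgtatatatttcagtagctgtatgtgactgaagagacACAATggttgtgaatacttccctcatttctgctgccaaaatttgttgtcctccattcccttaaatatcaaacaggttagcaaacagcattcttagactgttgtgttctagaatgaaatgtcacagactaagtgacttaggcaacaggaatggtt
*Sox6*, start 5 (chr7:115824711-115824960, minus strand): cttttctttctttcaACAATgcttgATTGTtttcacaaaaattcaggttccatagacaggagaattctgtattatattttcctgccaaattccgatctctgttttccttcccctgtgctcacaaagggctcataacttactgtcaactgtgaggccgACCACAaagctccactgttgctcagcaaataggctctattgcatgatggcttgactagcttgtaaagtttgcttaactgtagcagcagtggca

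ACAAT was found on either strand in 5 of the 14 windows of members, against 27.7% of all 32851 windows of the table. They were the windows of *Hapln1* and *Sox5* and 3 of the 6 windows of *Sox6*, 5 in all, and no window of *Acan*, *Lect1* or a matrilin held it. TGTGGT was found in 4 of the 14 windows, those of *Hapln1* and *Matn1* and 2 of *Sox6*, against 14.05% of all windows. A match describes these letters only, and the counts per gene do not tell from which start a transcript began. The window of *Acan* was the richest in G and C of the 14, at 74.4%, against a median of 52.4% over all windows.

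Total counts per library ran between 4920977 and 43874837. They were 21425212 to 43874837 in the bone GFP+ (hi) libraries, and 5482065 to 6468750 in the bone GFP- libraries, 13228266 to 15221973 in bone chip GFP+ (hi) cells and 9829832 to 17553194 in bone chip GFP- cells, and 20680956 to 26601417 in ESC-OB GFP+ cells and 4920977 to 21215099 in ESC. The sort was checked on *Col1a1*, which took 36.2 to 37.5% of all reads counted in the bone GFP+ (hi) libraries, against 0.805 to 1.59% in the bone GFP- libraries, and 12.1 to 14.4% in bone chip GFP+ (hi) cells and 2.93 to 3.37% in bone chip GFP- cells. In ESC-OB GFP+ libraries *Col1a1* took 0.324 to 0.774%, under every bone GFP- library, and in ESC 0.000671 to 0.00131%. *Col2a1*, the collagen of cartilage, took 13.7 to 24.1% of the counts in the bone GFP- libraries. Transcripts of 4 chromosome Y genes summed to 0.192, 62.4 and 0.433 counts-per-million (CPM) in the bone GFP+ (hi) libraries and to 73.1 to 133 CPM in the bone GFP- libraries, so GFP and the sex of the animals cannot be fully told apart in bone. With only GFP+ (hi) replicate 2, which has these transcripts, the log2 fold changes were -10.49 for *Lect1* and -3.85 for *Matn4*. That leaves 1 library in the group, assumed to vary like the GFP- libraries, which alone give the spread. ESC markers summed to 16.8 to 22.3 CPM in bone GFP+ (hi) cells, against 0.229 to 0.550 CPM in bone GFP- cells. ESC replicates 2 and 3 were nearly alike, with a chi-square of 1.68 per gene where other pairs of replicates had 6.76 or more, and both were kept. Whether they are separate samples is not given, so the spread in ESC may be understated and p-values against ESC too small.

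Levels are CPM scaled within a source by the trimmed mean of M-values (TMM), listed for replicates 1, 2 and 3. A gene was called higher or lower where the adjusted p of edgeR's quasi-likelihood test with Benjamini-Hochberg adjustment over all genes of the source was under 0.05. Fold changes are on the log2 scale, GFP+ over its counterpart, with standard errors (SE) and n = 3 libraries per group.

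**Figure D1:**
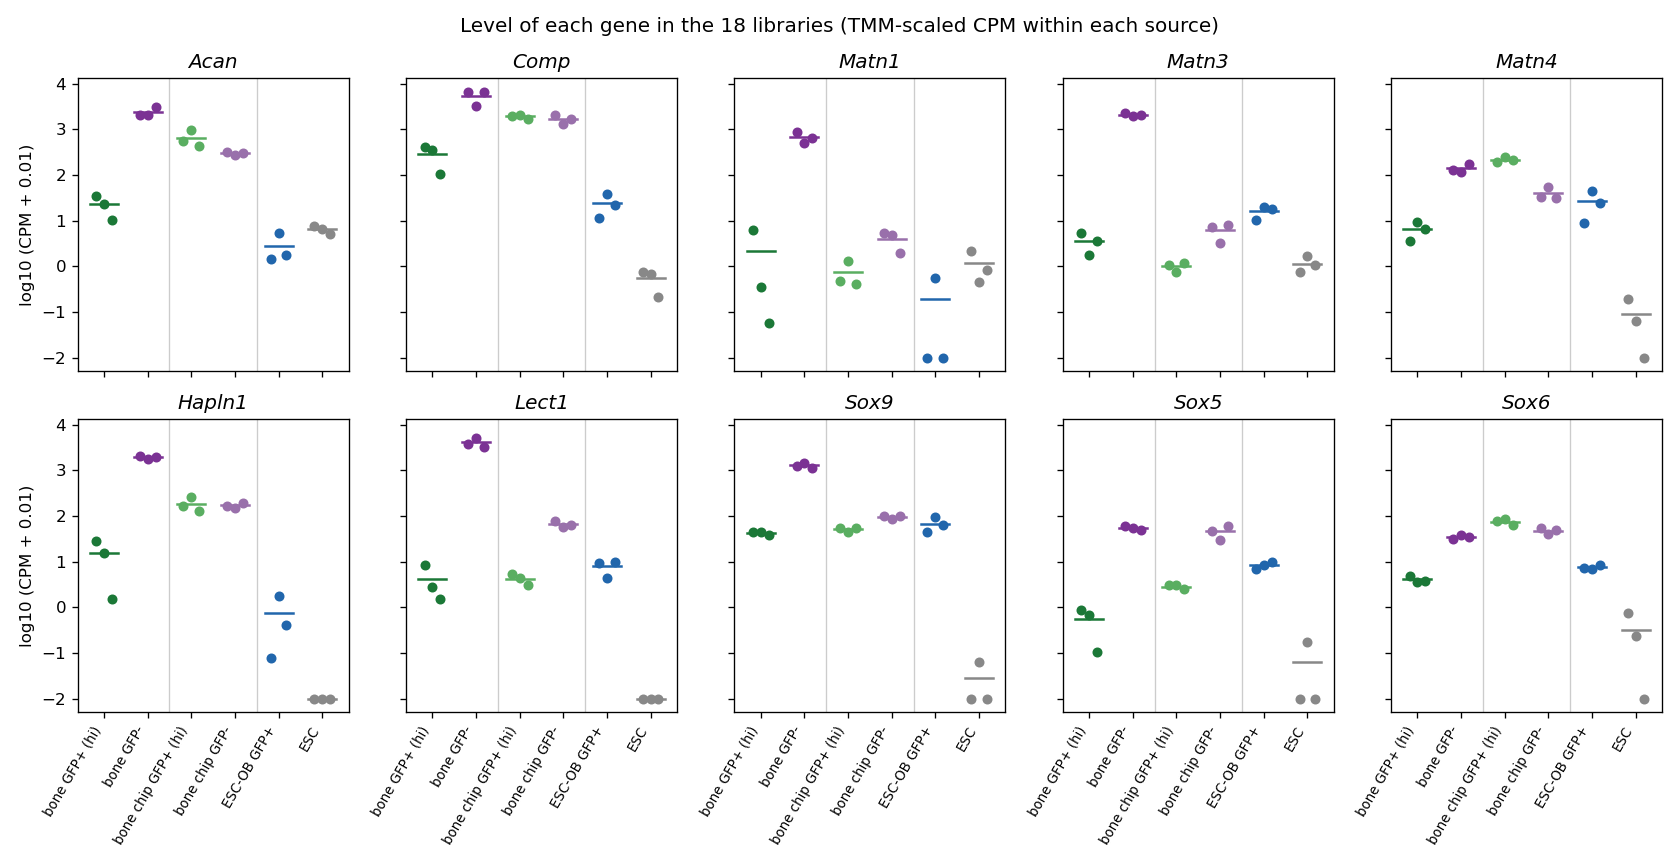
Level of the 10 genes in the 18 libraries, as log10 of TMM-scaled CPM plus 0.01 on a shared vertical axis. Points are libraries, bars the group means, and grey lines part the 3 sources, which were scaled separately. Bone GFP- cells stand above bone GFP+ (hi) cells in every panel, while the pair from bone chips changes order from gene to gene.

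In fresh bone every one of the 10 genes was lower in GFP+ (hi) cells, by 8.39-fold (*Sox6*) to 921-fold (*Lect1*). The libraries of the groups did not overlap for any of the 10. Over all 12559 genes tested, 22.1% were called lower, 19.5% higher and 41.7% in either direction. The libraries lay apart for 55.9% of all genes, with GFP+ (hi) under GFP- for 29.1%. The median log2 fold change was -6.65 over the 10 genes, against -0.0013 over all genes. Together the 10 genes took 0.0397, 0.0308 and 0.0117% of the counts in GFP+ (hi) libraries, against 2.72, 2.62 and 2.50% in GFP- libraries. In sorted bulk cells, fewer cells that express a gene and less RNA of it per cell cannot be told apart.

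*Acan* stood at 34.8, 22.9 and 10.6 CPM in bone GFP+ (hi) cells, against 2037, 2014 and 3116 CPM in bone GFP- cells. The highest GFP+ (hi) library was thus far under the lowest GFP- library. The log2 fold change was -6.71 (adjusted p = 5.7e-06, SE 0.47). *Hapln1*, the link protein that anchors aggrecan, had 29.0, 15.8 and 1.49 CPM in GFP+ (hi) cells and 2088, 1809 and 1950.1 CPM in GFP- cells. Its GFP- libraries were close together while the GFP+ (hi) libraries spread 19.4-fold, and the log2 fold change was -6.97 (adjusted p = 2.0e-04, SE 0.86). Without GFP+ (hi) replicate 1 it was -7.84.

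By its log2 fold change with all libraries, *Comp* was the least reduced adaptor protein gene. It had 420.2, 348 and 104 CPM in GFP+ (hi) cells and 6677, 3295 and 6489 CPM in GFP- cells. Its log2 fold change was -4.24 (adjusted p = 1.8e-04, SE 0.52), and it kept the highest level of the 10 genes in GFP+ (hi) cells both in CPM and per kilobase of exon. *Matn4* stood at 3.65, 9.63 and 6.45 CPM in GFP+ (hi) cells and 129, 115 and 178 CPM in GFP- cells, a log2 fold change of -4.45 (adjusted p = 1.1e-05, SE 0.35). Without GFP+ (hi) replicate 1 the order turned, with *Comp* at -4.59 and *Matn4* at -4.13. *Matn3*, mutated in a form of multiple epiphyseal dysplasia in humans, had 5.45, 1.78 and 3.56 CPM against 2294, 1966 and 2024 CPM, in GFP+ (hi) and GFP- cells. The groups lay far apart and the GFP- libraries close together, for a log2 fold change of -9.14 (adjusted p = 4.5e-07, SE 0.41). *Matn1* varied most, with 193, 5 and 1 counts (6.19, 0.342 and 0.0482 CPM) in GFP+ (hi) cells and 892, 503 and 643 CPM in GFP- cells. Its log2 fold change of -8.11 (adjusted p = 2.6e-04, SE 1.04) became -11.86 without GFP+ (hi) replicate 1.

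*Lect1* showed the widest gap of the 10, with 8.53, 2.80 and 1.49 CPM in GFP+ (hi) cells and 3769.7, 5165 and 3309.6 CPM in GFP- cells. It was called lower with a log2 fold change of -9.85 (adjusted p = 5.5e-06, SE 0.68), or -10.91 without GFP+ (hi) replicate 1. Only 10 of the 12559 genes tested had a more negative fold change.

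Of the Sox trio, *Sox9* was the most abundant, at 44.6, 45.4 and 38.7 CPM in GFP+ (hi) cells and 1271, 1444 and 1137 CPM in GFP- cells. Its replicates were tight in both groups and its log2 fold change of -4.90 (adjusted p = 2.2e-07, SE 0.19) had the smallest SE of the 10 genes. *Sox5* had 27, 10 and 2 counts (0.866, 0.683 and 0.0963 CPM) in GFP+ (hi) cells, against 59.5, 56.2 and 50.7 CPM in GFP- cells. The log2 fold change was -6.59 (adjusted p = 4.3e-06, SE 0.44), and -7.26 without GFP+ (hi) replicate 1. *Sox6* fell least of the 10 genes, with 4.90, 3.69 and 3.76 CPM in GFP+ (hi) cells and 31.7, 37.6 and 35.2 CPM in GFP- cells, a log2 fold change of -3.07 (adjusted p = 4.9e-06, SE 0.21).

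What remained in GFP+ (hi) cells was not the same share of each gene. Expressed as a percent of the GFP- mean, *Sox6* remained at 10.6 to 14.1% over the 3 GFP+ (hi) libraries and *Sox9* at 3.01 to 3.53%. *Comp* ranged over 1.89 to 7.66%, *Matn4* over 2.59 to 6.83% and *Acan* over 0.445 to 1.46%. *Hapln1* ranged over 0.0766 to 1.49%, *Sox5* over 0.174 to 1.56%, *Lect1* over 0.0366 to 0.209%, *Matn3* over 0.0848 to 0.260% and *Matn1* over 0.00709 to 0.911%. *Col2a1* stood at 2.85, 1.82 and 1.16% in replicates 1, 2 and 3. Replicate 1 held the highest share for 8 of the 10 genes, *Matn4* and *Sox9* being the exceptions, and replicate 3 the lowest for 7. The share of *Sox9* changed 1.17-fold over these libraries and that of *Matn1* 128-fold. The part of the level of *Col2a1* in this spread was not tested.

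**Figure D2:**
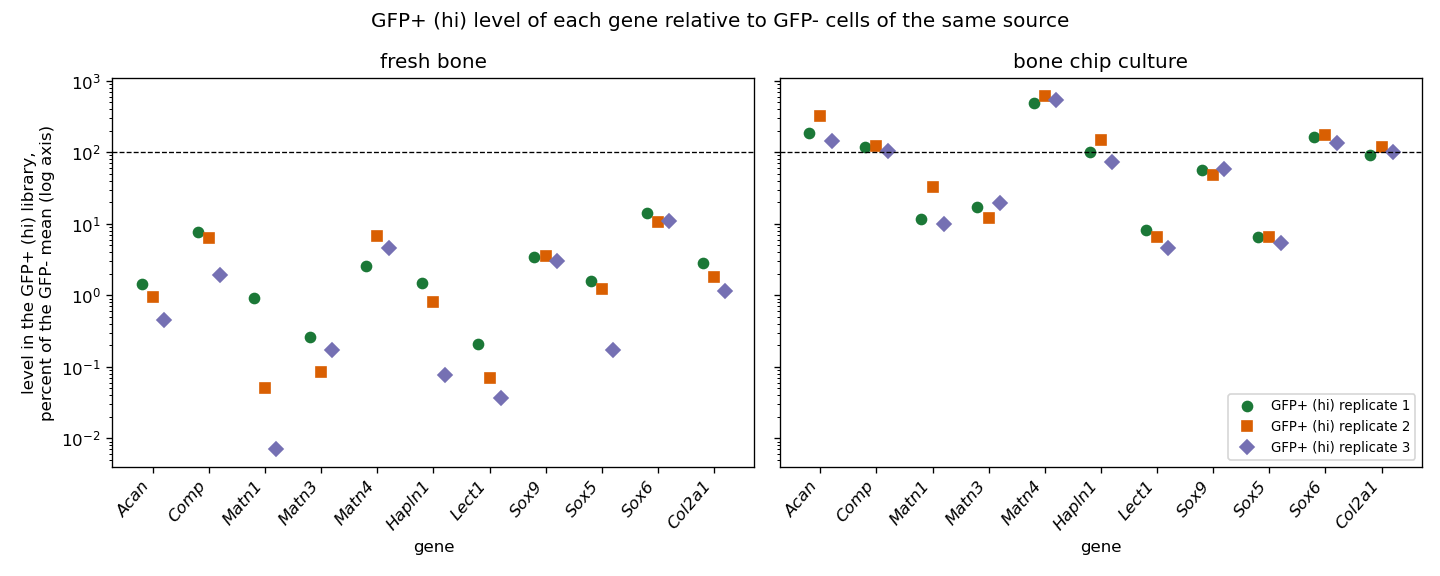
Level of each gene in each GFP+ (hi) library as a percent of the mean of the GFP- libraries of the same source, on a log axis, with *Col2a1* beside the 10 genes and a dashed line at 100%. In fresh bone all points are far under the line, *Sox9* and *Sox6* are tight and *Matn1* spans 128-fold. In bone chip cultures *Matn4*, *Acan* and *Sox6* lie above the line and *Lect1* and *Sox5* at 4.56 to 8.13%.

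In bone chip cultures the group divided. In this culture *Matn4*, *Acan* and *Sox6* were called higher in GFP+ (hi) cells, *Sox5*, *Lect1*, *Matn3*, *Matn1* and *Sox9* were called lower, and *Comp* and *Hapln1* were not called. Over all 12841 genes tested, 20.4% were called higher and 23.1% lower, 43.5% in all. Scaled by total counts alone, 8979 of the 12841 genes were called and 6 of the 10, so whether the share called among the 10 exceeds that of all genes depends on the scaling. The groups did not overlap for the same 8 genes, against 56.1% of all genes, 26.7% with GFP+ (hi) higher and 29.5% with it lower. The median log2 fold change was -0.39 over the 10 genes and -0.04 over all genes.

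*Matn4* had 197, 243 and 214 CPM in bone chip GFP+ (hi) cells and 33.3, 55.5 and 31.2 CPM in bone chip GFP- cells. It rose 5.45-fold, a log2 fold change of 2.45 (adjusted p = 3.0e-04, SE 0.24). *Acan* stood at 554, 971 and 434 CPM in GFP+ (hi) cells and 328, 269 and 299 CPM in GFP- cells, so the groups were apart but replicate 2 exceeded the other GFP+ (hi) libraries. Its log2 fold change was 1.13 (adjusted p = 0.0179, SE 0.29). *Sox6* had 77.5, 84.4 and 64.8 CPM in GFP+ (hi) cells and 54.1, 41.3 and 48.5 CPM in GFP- cells, with a log2 fold change of 0.66 (adjusted p = 0.00857, SE 0.14). The calls of *Acan* and *Sox6* rest on the TMM factors. With scaling by total counts alone, an alternative chosen after seeing the data that moves the median of all genes by -0.55, they were 0.59 (adjusted p = 0.108) and 0.11 (adjusted p = 0.502), while *Matn4* stayed called at 1.89.

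Among the genes called lower in bone chips, *Lect1* had 5.40, 4.32 and 3.03 CPM in GFP+ (hi) cells and 79.3, 56.9 and 63 CPM in GFP- cells, a log2 fold change of -3.97 (adjusted p = 4.5e-05, SE 0.23). *Sox5* had 3.03, 3.07 and 2.47 CPM against 48.1, 30.1 and 61.2 CPM in GFP+ (hi) and GFP- cells, and its log2 fold change of -4.02 (adjusted p = 9.9e-05, SE 0.30) was close to that of *Lect1*. *Sox9* was close between the groups, with 54.7, 45.5 and 56.1 CPM in GFP+ (hi) cells and 99.6, 84.6 and 103 CPM in GFP- cells. The groups did not overlap, and it fell 1.84-fold, a log2 fold change of -0.88 (adjusted p = 0.00134, SE 0.12). *Matn3* and *Matn1* were scarce in both groups. *Matn3* had 1.04, 0.747 and 1.20 CPM in GFP+ (hi) cells and 7.14, 3.24 and 8.02 CPM in GFP- cells, a log2 fold change of -2.61 (adjusted p = 0.00225, SE 0.41). *Matn1* had 5, 16 and 5 counts in GFP+ (hi) cells and 61, 76 and 43 counts in GFP- cells, and its log2 fold change of -2.43 (adjusted p = 0.0126, SE 0.57) was -2.21 (adjusted p = 0.0533) without GFP+ (hi) replicate 1 and -3.18 without GFP+ (hi) replicate 2.

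The genes that were not called were both abundant. *Comp* had 1975, 2061 and 1716 CPM in GFP+ (hi) cells and 2040.3, 1298 and 1689 CPM in GFP- cells, overlapping groups with a log2 difference of 0.19 (adjusted p = 0.417, SE 0.18) and a 95% interval of -0.23 to 0.62. *Hapln1* had 170.3, 257 and 127 CPM in GFP+ (hi) cells and 169.9, 149 and 195 CPM in GFP- cells, with a log2 difference of 0.11 (adjusted p = 0.761, SE 0.25) and a 95% interval of -0.49 to 0.70. Both differences turned negative with scaling by total counts alone, to -0.35 and -0.44. Neither passed the test under any setting run in bone chips.

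Within the Sox trio the libraries of the bone chip groups did not overlap in make-up, which was not tested. On the scale of CPM per kilobase of exon, *Sox6* made up 39.4, 46.0 and 34.7% of the summed level of the trio in GFP+ (hi) libraries, against 18.2, 17.2 and 15.8% in GFP- libraries. *Sox5* made up 0.949, 1.03 and 0.816% in GFP+ (hi) libraries and 9.97, 7.69 and 12.3% in GFP- libraries. In fresh bone *Sox9* held 94.6 to 95.9% of the trio of the GFP+ (hi) libraries, against 97.3 to 97.7% of the GFP- libraries, and in ESC-OB GFP+ cells 89.4 to 94.3%. These shares need no scaling between libraries, but they rest on the annotated exon lengths, which for *Sox5* (14.376 kb) and *Sox6* (8.852 kb) join many transcript forms.

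**Figure D3:**
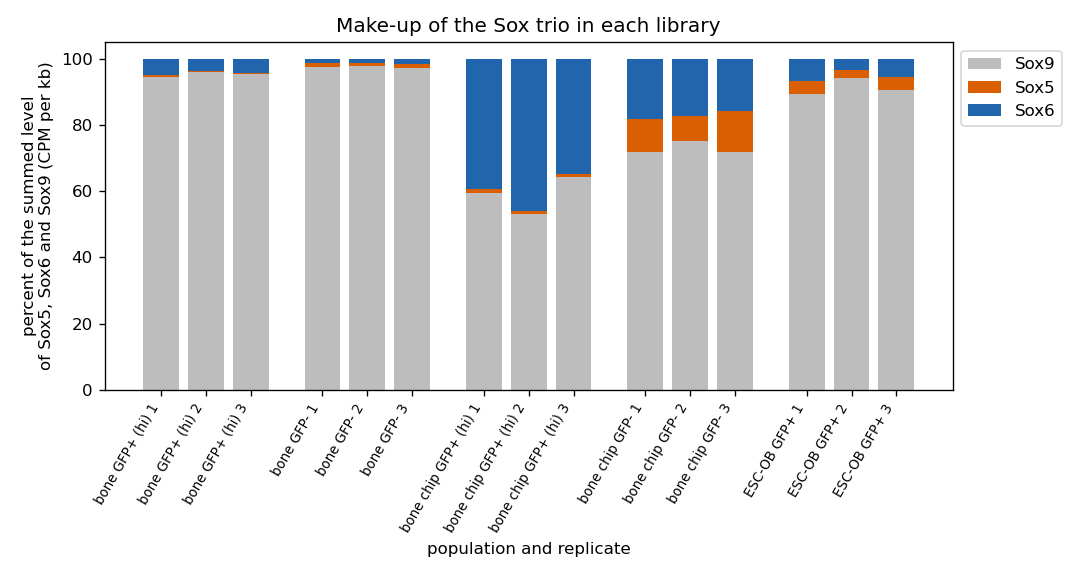
Share of *Sox9*, *Sox5* and *Sox6* in their summed level, in CPM per kilobase of exon, with 1 bar per library. *Sox9* fills 94.6 to 97.7% of the fresh bone bars. Bone chip GFP+ (hi) bars hold 34.7 to 46.0% *Sox6* and 0.816 to 1.03% *Sox5*, against 15.8 to 18.2% and 7.69 to 12.3% in bone chip GFP- bars. ESC are left out because the trio has 12 counts in all there.

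The difference between GFP+ (hi) and GFP- cells in bone, minus that in bone chips, was tested as an interaction in 1 fit of 12 libraries. It was called lower for each of the 10 genes, against 15.6% of all genes lower and 30.3% called in either direction. It was largest for *Acan*, at -7.84 (adjusted p = 1.5e-06, SE 0.59) on the log2 scale, and smallest for *Sox5*, at -2.56 (adjusted p = 0.00484, SE 0.57). For *Sox6* it was -3.72 (adjusted p = 5.2e-07, SE 0.24). Scaled by total counts alone, all 10 were still called lower. *Matn1*, at -5.70 (adjusted p = 0.0229, SE 1.70), lost its call without bone chip GFP+ (hi) replicate 2 (-4.94, adjusted p = 0.175) and was -9.49 without bone GFP+ (hi) replicate 1. Leaving out that bone library also moved *Hapln1* to -7.95, *Lect1* to -6.94 and *Sox5* to -3.25. Source cannot be told apart from culture and deposited table, nor fully from the sex of the animals, here and in the contrasts between sources below. Of the 4 chromosome Y genes, 1 was found in bone chips, with 0 or 1 counts per library. In the bone GFP- libraries the 4 genes had 625 to 1167 counts. *Rn45s*, a ribosomal RNA transcript, took 8.01 to 12.5% of the counts in the bone chip libraries and 0.0562 to 0.342% in the bone libraries. In ESC its share was 5.72 to 7.95%, against 0.290 to 0.690% in ESC-OB GFP+ libraries. This share thus cannot be told apart from source, nor from group in the ESC-OB comparison.

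**Figure D4:**
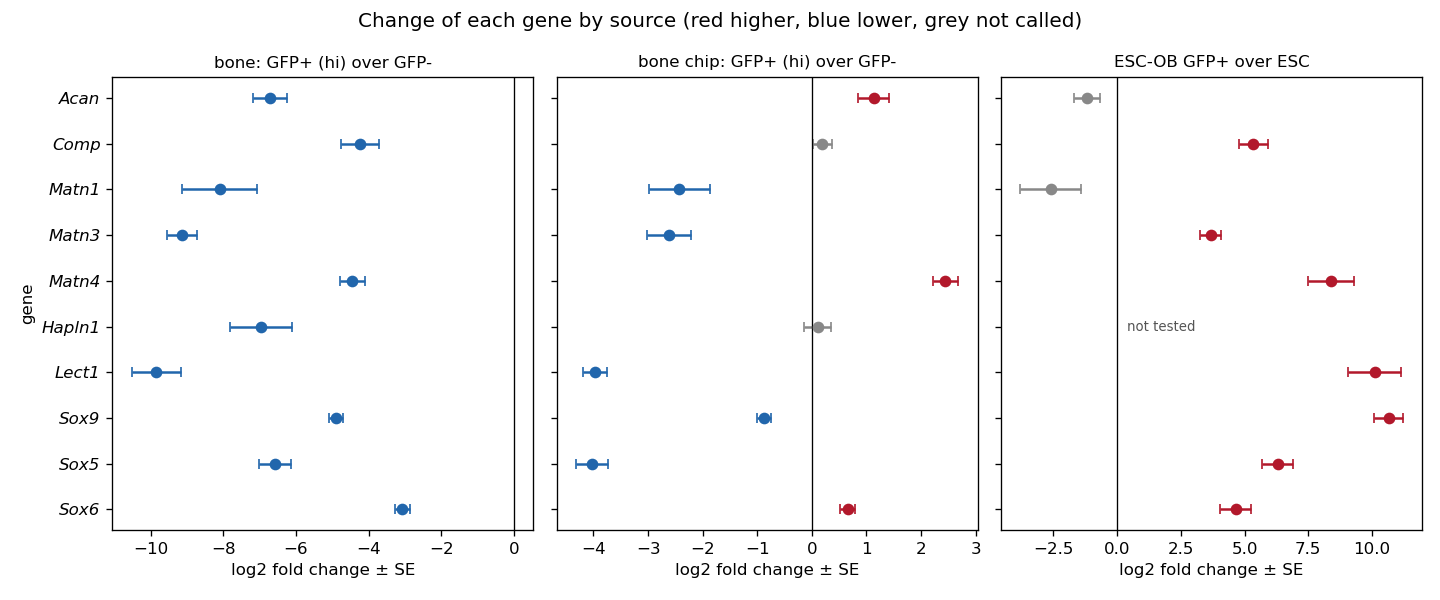
Log2 fold change with its standard error for each gene in the 3 comparisons, where a point right of 0 is higher in GFP+ cells. Red points were called higher, blue points lower and grey points were not called, and the horizontal scales differ between panels. All 10 points are left of 0 in fresh bone, they divide in bone chips, and 7 of 9 are right of 0 and called in ESC-OB.

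Set against their fresh counterparts, the bone chip GFP- cells had less of 8 of the 10 genes, against 31.1% of all genes called lower, 32.3% called higher and 63.4% in either direction. *Matn3* differed by -8.83 (adjusted p = 1.3e-08, SE 0.45), *Matn1* by -7.87 ± 0.94, *Lect1* by -6.37 ± 0.53, *Sox9* by -4.18 ± 0.16, *Hapln1* by -3.93 ± 0.67, *Acan* by -3.43 ± 0.41, *Matn4* by -2.26 ± 0.30 and *Comp* by -2.14 ± 0.43, all log2 with SE. *Sox5* at -0.68 (adjusted p = 0.0804, SE 0.32) and *Sox6* at 0.03 (adjusted p = 0.883, SE 0.16) were not called, with 95% intervals of -1.37 to 0.01 and -0.32 to 0.38, though *Sox5* was under some alternatives. Bone chip GFP+ (hi) cells had more of 6 genes than bone GFP+ (hi) cells, against 32.6% of all genes called higher and 61% in either direction. The differences were 4.65 ± 0.34 for *Matn4*, 4.40 ± 0.43 for *Acan*, 3.75 ± 0.18 for *Sox6*, 3.14 ± 0.66 for *Hapln1*, 2.29 ± 0.43 for *Comp* and 1.88 ± 0.47 for *Sox5*, the largest adjusted p being 0.00408. Without bone GFP+ (hi) replicate 1 those of *Hapln1* and *Sox5* were 4.03 and 2.59. *Matn3* was lower at -2.33 ± 0.47 (28.5% of all genes were called lower). *Lect1* (-0.50 ± 0.50), *Matn1* (-2.17 ± 1.11) and *Sox9* (-0.15 ± 0.15) were not called, with 95% intervals of -1.58 to 0.57, -4.57 to 0.24 and -0.47 to 0.17. Without bone GFP+ (hi) replicate 1, *Lect1* was at 0.59 and *Matn1* at 1.64. Scaled by total counts alone, which moves the median of all genes by 0.68, *Sox9* was called higher at 0.53 (adjusted p = 0.0148) and *Lect1* was at 0.16.

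In ESC-OB GFP+ cells 7 genes of the group were higher than in ESC. *Sox9*, *Lect1*, *Matn4*, *Sox5*, *Comp*, *Sox6* and *Matn3* were called higher, and *Acan* and *Matn1* were not called. *Hapln1* did not pass the filter on low counts, so 9 of the 10 genes were tested and the 7 calls are not a share of the whole group. Over all 15417 genes tested, 43% were called higher, 34.7% lower and 77.7% in either direction. The libraries did not overlap for the same 7 genes nor for *Hapln1*, and over all genes for 81.6%, with ESC-OB above ESC for 45% and under it for 36.6%. The median log2 fold change was 0.22 over all genes and 5.34 over the 9 genes, and changes here are to be read against the first of these.

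*Sox9* had 45.5, 94.4 and 65.5 CPM in ESC-OB GFP+ cells and 0, 1 and 0 counts in ESC, a log2 fold change of 10.66 (adjusted p = 5.2e-08, SE 0.56). With 1 count in ESC the ratio is loosely fixed, at 1868 with a 95% counting interval of 335 to 73780.5. It had the highest mean level of the group in these cells. *Sox5* had 6.88, 8.53 and 10 CPM in ESC-OB GFP+ cells and 0, 3 and 0 counts in ESC, a ratio of 78.9 (95% counting interval 26.9 to 384) and a log2 fold change of 6.29 (adjusted p = 4.4e-06, SE 0.62). *Sox6* had 7.26, 7.03 and 8.45 CPM in ESC-OB GFP+ cells and 0.737, 0.222 and 0 CPM in ESC, a log2 fold change of 4.65 (adjusted p = 3.6e-05, SE 0.60). The folds of genes with few ESC counts moved when an ESC library was left out. Without ESC replicate 2 the log2 fold changes of *Sox9* and *Sox5* were 13.20 and 10.19, and without ESC replicate 1 that of *Sox6* was 5.44, all still called.

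*Lect1* stood at 9.47, 4.47 and 9.82 CPM in ESC-OB GFP+ cells and at 0 counts in every ESC library, at least 76.5-fold higher with a floor of 3 counts over the ESC group. Its adjusted p was 2.1e-05 in edgeR's quasi-likelihood test with Benjamini-Hochberg adjustment. *Matn4* had 8.95, 45.4 and 25.1 CPM in ESC-OB GFP+ cells and 1, 1 and 0 counts in ESC, a ratio of 349.8 (95% counting interval 96.7 to 2890.3) with an adjusted p of 8.6e-06, and its log2 fold change of 8.39 was 9.04 without ESC replicate 1. *Comp* had 11.4, 38.8 and 21.8 CPM against 0.737, 0.666 and 0.209 CPM in ESC-OB GFP+ cells and ESC, a log2 fold change of 5.34 (adjusted p = 8.0e-06, SE 0.57). *Matn3* had 10.2, 19.8 and 18.5 CPM in ESC-OB GFP+ cells and 0.737, 1.66 and 1.05 CPM in ESC, with a log2 fold change of 3.67 (adjusted p = 1.2e-05, SE 0.41). Intervals and floors cover counting error only.

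*Acan* was the exception among the better measured genes, with 1.42, 5.43 and 1.73 CPM in ESC-OB GFP+ cells and 7.74, 6.60 and 5.03 CPM in ESC. The groups overlapped through ESC-OB replicate 2, and the log2 difference was -1.19 (adjusted p = 0.0545, SE 0.51) with a 95% interval of -2.33 to -0.05. Without that library it was -1.96 (adjusted p = 0.00163). *Matn1* had 0, 12 and 0 counts in ESC-OB GFP+ cells and 12, 8 and 4 counts in ESC, a log2 difference of -2.60 (adjusted p = 0.0668, SE 1.19). It was -7.10 (adjusted p = 0.0047) without ESC-OB replicate 2, and between -1.75 and -1.97 without ESC replicate 1, ESC-OB replicate 1 or ESC-OB replicate 3. *Hapln1* had 2, 38 and 10 counts in ESC-OB GFP+ cells and none in ESC, at least 6.21-fold higher by the same floor, and was not tested in this fit. *Col2a1*, the fibril collagen that these proteins bind, ranged over 9.43 to 16.2 CPM in ESC-OB GFP+ libraries, with 15.5 to 27.1 CPM in the ESC libraries, and was called lower (log2 fold change -0.81, adjusted p = 0.0216).

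Across the 6 populations, scaled together by TMM over the 15853 shared genes, bone GFP- cells held the highest level of 8 of the 10 genes, with no overlap with the next population. The exceptions were *Matn4*, which averaged 241 CPM in bone chip GFP+ (hi) cells and 203 CPM in bone GFP- cells with overlapping libraries, and *Sox6*, which averaged 83.7 CPM in bone chip GFP+ (hi) cells, 53.5 CPM in bone chip GFP- cells and 50.2 CPM in bone GFP- cells, of which the last 2 overlapped. Scaled by total counts alone, the order of *Matn4* in its first 2 populations turned and all 3 leading populations of *Sox6* overlapped with their neighbours. For *Sox5*, bone GFP- cells (66.9 to 89.6 CPM) then overlapped bone chip GFP- cells (37.2 to 75.1 CPM). In the same scaling *Sox9* was higher in ESC-OB GFP+ cells (73.3 CPM) than in bone chip GFP+ (hi) cells (42.9) and bone GFP+ (hi) cells (29.8), and the bone chip groups overlapped for *Acan*. ESC were lowest for 8 genes, overlapping bone chip GFP+ (hi) cells for *Matn3*, and ESC-OB GFP+ cells for *Acan* and *Matn1*, in both cases overlapping ESC. *Sox9* averaged 1852 CPM in bone GFP- cells, 107 in bone chip GFP- cells, 68.4 in bone GFP+ (hi) cells, 57.7 in bone chip GFP+ (hi) cells and 41.5 in ESC-OB GFP+ cells, the last 2 overlapping, and 0.0112 in ESC. *Acan* averaged 3445 CPM in bone GFP- cells, 723 in bone chip GFP+ (hi) cells, 333 in bone chip GFP- cells, 36.4 in bone GFP+ (hi) cells, 1.73 in ESC-OB GFP+ cells and 3.87 in ESC.

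Compared per kilobase of exon within bone GFP- cells, *Comp* (2263 ± 784 CPM per kb, SD) and *Lect1* (2215 ± 524) led, with overlapping libraries. *Matn3* followed at 695 ± 58.0, and then *Hapln1* at 386 ± 27.6, *Matn1* at 339.5 ± 98.3, *Acan* at 325 ± 85.6 and *Sox9* at 310.5 ± 37.3. Neighbours in this order overlapped from *Hapln1* to *Sox9*, while the libraries of *Hapln1* and *Sox9* themselves did not. *Matn4* reached 27.2 ± 6.37, *Sox6* 3.94 ± 0.337 and *Sox5* 3.86 ± 0.312. In bone chip GFP+ (hi) cells the order was *Comp* (791 ± 74.0), *Acan* (88.8 ± 38.3), *Matn4* (42.1 ± 4.55), *Hapln1* (36.5 ± 13.1), *Sox9* (12.6 ± 1.40) and *Sox6* (8.54 ± 1.13), with *Lect1*, *Matn1*, *Matn3* and *Sox5* between 0.199 and 2.30 CPM per kb. *Matn4* shares exon bases with *Rbpjl* and *Sox5* with 4933415D12Rik on the opposite strand in the GENCODE annotation, and the strand setting of the counting is not given in the sources used here, so reads of those genes cannot be told apart from theirs where they overlap.

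Over the 18 libraries and 14322 genes, the gene whose log2 level was most like that of *Acan* was *Hapln1* (Pearson's r = 0.985), followed by *Susd5* (0.978), *Prkg2* (0.977), *Col10a1* (0.974), the collagen of hypertrophic chondrocytes, and *Xylt1* (0.966), which starts the chondroitin sulfate chains. For *Sox9* they were 4930523C07Rik (0.978), *Slc22a4* (0.977), *Mob3a* (0.975), *Trp53inp2* (0.975) and *Lsp1* (0.972). Among the other members, *Comp* ranked 25th and *Matn3* 1336th for *Acan*. For *Sox9* the members ranked from 246th (*Lect1*) to 1266th (*Matn1*), with *Sox6* 996th and *Acan* 1115th. These values describe 6 populations of 3 libraries that share their source, and are not a test.

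Counts of the lists in bone stand against 19.5% of all genes called higher and 22.1% lower, in bone chips against 20.4% and 23.1%, and in ESC-OB against 43% and 34.7%. Of 22 other cartilage matrix genes tested, 20 were lower in bone GFP+ (hi) cells and none higher, with a median log2 fold change of -6.22. *Mia*, a secreted protein of chondrocytes, changed by -8.00, *Col10a1* by -8.91, *Prelp*, a leucine-rich repeat protein of the matrix, by -7.32 and *Scrg1* by -6.76 (adjusted p at most 1.4e-06, edgeR's quasi-likelihood test with Benjamini-Hochberg adjustment). In bone chips 5 of these 22 were higher and 12 lower, with *Col2a1* at 0.04 (adjusted p = 0.906) and *Col10a1* at 0.52 (adjusted p = 0.225), and in ESC-OB 12 of 16 were higher and 1, *Col2a1*, was lower. Of 18 chondrocyte regulators, 3 were higher and 12 lower in bone. *Wwp2*, a ubiquitin ligase, changed by -2.79, *Ihh*, the ligand that paces the growth plate, by -5.99 and *Foxa3* by -6.06, while *Runx2*, which osteoblasts and hypertrophic chondrocytes share, changed by 1.67. In bone chips 8 of 15 regulators were higher and 4 lower, and in ESC-OB 11 of 16 were higher and 3 lower.

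Of 21 enzymes and transporters tested that serve the sugar chains of aggrecan and hyaluronan, 4 were higher and 12 lower in bone (median -0.97), 10 higher and 4 lower in bone chips (0.31), and 14 higher and 2 lower in ESC-OB (1.53). In bone, *Has2*, a hyaluronan synthase, changed by -7.20, the nucleotide-sugar transporter *Slc35d1* by -3.60 and *Papss2*, which makes the sulfate donor, by -3.06, while the sulfotransferase *Chst13* changed by 8.83. Of 11 genes for proteases that cut aggrecan or the matrix, counting the inhibitor *Timp3*, 5 were higher and 3 lower in bone, among them *Adamts5*, an aggrecanase, at 1.86 and *Timp3* at -3.33. In bone chips 3 of 10 were higher and 6 lower, and in ESC-OB 9 of 10 were higher and none lower.

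Among relatives of the matrix genes 3 of 10 were higher and 2 lower in bone, with *Bcan* and *Hapln4*, relatives of aggrecan and link protein best known from brain, at 5.56 and 4.34 and *Matn2* and *Thbs3* at -1.46 and -4.50. In bone chips 3 of 10 were higher and 6 lower, and in ESC-OB 8 of 11 were higher and 2 lower. Of the other Sox genes 2 of 8 were higher and 3 lower in bone. *Sox4* was higher at 2.49, *Sox8*, a close relative of *Sox9*, was lower at -3.65, and *Sox10* and *Sox11* were lower at -8.95 and -6.08. *Sox10* also marks neural and glial cells, whose 5 markers summed to 8.67 to 11.8 CPM in the GFP+ (hi) libraries, against 48.0 to 74.7 CPM in the GFP- libraries, and its part was not tested. In bone chips 1 of 3 was higher and 1 lower, and in ESC-OB 5 of 12 were higher and 5 lower.

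Marker lists of other cells were summed per library beside these results. The 8 osteoblast markers summed to 819989 to 869371 CPM in the bone GFP+ (hi) libraries, against 11480 to 23000 CPM in the bone GFP- libraries on the TMM scale, and to 307066 to 372426 and 45035 to 54013 CPM in bone chip GFP+ (hi) and GFP- cells. In ESC-OB GFP+ libraries the osteoblast markers summed to 5490 to 15456 CPM, against 248 to 417 CPM in ESC. Of the 6 tested there, 5 were called higher and 1 lower. *Col1a1* and *Col1a2* carried the sum, averaging 5281 and 4235 CPM in ESC-OB GFP+ cells. *Alpl* averaged 36.9 CPM in ESC-OB GFP+ cells and 313 CPM in ESC. *Ibsp* ranged over 0.587 to 1379.5 CPM in the ESC-OB GFP+ libraries, while *Bglap* and *Sp7* averaged 0.491 and 2.23 CPM there. Tendon and ligament markers, 6 genes, summed to 551 to 1163 CPM in the bone GFP+ (hi) libraries, against 3748 to 4461 CPM in the bone GFP- libraries, a sum carried by *Fmod* (log2 fold change -2.77). The direction of the sum is not that of the list, of which *Scx*, *Kera*, *Tnmd* and *Mkx* were called higher at 1.91, 2.34, 1.21 and 0.94, *Fmod* was the 1 called lower, and *Thbs4* at 0.45 was not called. Marrow stromal and adipocyte markers, 5 genes, summed to 220 to 239 CPM in bone chip GFP+ (hi) cells and 1256 to 2232 CPM in bone chip GFP- cells. That sum was carried by *Cxcl12*, which averaged 177 CPM in GFP+ (hi) and 1793 CPM in GFP- cells. Of these 5 genes 1 was called higher, 3 lower and 1 was not called, and *Lepr* averaged 39.4 CPM in GFP+ (hi) and 17.6 CPM in GFP- cells. Myeloid markers summed to 424 to 669 CPM in bone chip GFP+ (hi) cells and 285 to 3289 CPM in bone chip GFP- cells. Their part in the levels of the 10 genes was not tested.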

How the data were processed

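RNA sequencing of 18 libraries was analysed. Libraries were made by the authors from polyadenylated RNA and read from both ends, and the submitters' processing notes name STAR 2.4.2a, mm9, DESeq2 and R 3.2.2. The deposited tables, 1 per source, hold whole counts per gene that were not normalized. The counting tool, its strand setting and the handling of reads with several matches are not given in the sources used here. Every value column was mapped to a sample by its name. Total counts of 4920977 to 43874837 set the precision, since at the lowest total a gene at 1 CPM has about 5 counts.

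Each source was fitted with edgeR 4.0.16 and limma 3.58.1 under R 4.3.3 (filterByExpr with a minimum count of 10, TMM factors, glmQLFit and glmQLFTest, no covariate, Benjamini-Hochberg over all genes, calls under 0.05). Bone and bone chips were joined in 1 fit of 12 libraries for the interaction and the contrasts between sources. The test was also run on simulated data with 200 changed genes. The outcome of that run is not reported here, so it lends no support to the calls. Exon lengths and overlaps are those of GENCODE vM1, and promoter windows those of RefSeq on GRCm38.p6.

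The members and gene lists were chosen with earlier results of these data known. Named are all 10 members, from each list up to 4 genes with the smallest adjusted p in bone, the 5 genes most correlated with *Acan* and with *Sox9*, and *Col1a1*, and also *Col2a1*, which was added after its values were seen. Further genes of the marker lists, and the share of *Rn45s*, were likewise added after their values were seen. The reference genes *Actb*, *Gapdh* and *Hprt* averaged 334, 104 and 16.0 CPM in bone GFP+ (hi) cells and 199.5, 502 and 39.9 CPM in bone GFP- cells. Marker lists not described in the text, with summed levels in bone GFP+ (hi) and then bone GFP- cells, were erythroid (0.801 to 13.8 and 9.36 to 13.8 CPM), B lymphoid (14.3 to 17.0 and 25.4 to 97.8 CPM), and endothelial (0.478 to 0.626 and 2.63 to 3.74 CPM).

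Deviations from the group means, compared between equally numbered libraries, correlated at 0.185, 0.355 and 0.413 in bone chips. Unequally numbered libraries there correlated at -0.387 to 0.0046. These numbers may thus pair the bone chip samples, which the sources used here do not state. The correlations were under 0.1 in bone and ESC-OB, where no pairing showed. Each result was also computed with a replicate block, with DESeq2 1.42.0, with upper-quartile or RLE factors, without the filter or with one at 1 CPM, after thinning to 4920977 counts, in 1 fit of all 18 libraries, and on leaving out *Col1a1* and *Rn45s*, each library in turn, or, in bone, the GFP+ (hi) libraries without chromosome Y transcripts. Scaling by total counts and leaving out *Col2a1* as well were added after seeing the data. Python 3.11.15, pandas 2.3.3 and matplotlib 3.10.9 made tables and figures.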

Additional observations from a re-analysis of the deposited data

Results flagged for a closer look

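The difference between GFP+ (hi) and GFP- cells was not the same in bone and bone chips for each of the 10 genes. This was called in the interaction of edgeR's quasi-likelihood test with Benjamini-Hochberg adjustment. The log2 fold change in bone minus that in bone chips was -7.84 for *Acan*, -7.07 for *Hapln1*, -6.91 for *Matn4*, -6.51 for *Matn3* and -5.87 for *Lect1*. It was -5.70 for *Matn1*, -4.43 for *Comp*, -4.03 for *Sox9*, -3.72 for *Sox6* and -2.56 for *Sox5*. The 3 genes whose fold changes had opposite signs and were called in both sources were *Acan*, *Matn4* and *Sox6*. With scaling by total counts alone only *Matn4* of these kept its call in bone chips. The cause was not tested.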

How the results depend on the processing

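Of 1022 member values under alternatives, 997 kept their direction and their side of the threshold, 6 lost and 10 gained a call and 9 changed sign. In bone all 10 genes stayed called lower under every alternative with at least 2 libraries in each group. The number of genes called there was 8485 with total-count scaling and 3288 with only the GFP+ (hi) library that has chromosome Y transcripts, where the GFP- libraries alone give the spread, against 5231, and in bone chips 8979 with total-count scaling against 5581. Total-count scaling moved the median of all genes by -1.06 (bone), -0.55 (bone chips) and 0.22 (ESC-OB). In bone chips it gave *Comp* -0.35 and *Hapln1* -0.44, and between the GFP+ (hi) cells of both sources *Lect1* 0.16 and *Sox9* 0.53 (adjusted p = 0.0148), all of them reversed. The joint fit lost the calls of *Acan* (1.12, adjusted p = 0.0559) and *Matn1* (-2.41, adjusted p = 0.110) in bone chips. Leaving out 1 library at a time gave *Hapln1* -0.21 to 0.32 in bone chips, *Sox6* -0.0545 to 0.16 between GFP- cells, and *Lect1* -0.91 to 0.59 and *Matn1* -2.92 to 1.64 between GFP+ (hi) cells. *Sox5* was called lower in bone chip GFP- than bone GFP- cells with thinned libraries (-0.67) and without bone GFP+ (hi) replicate 3 or bone chip GFP- replicate 3 (-0.66 and -0.93). The replicate block changed no call of the 10 genes in bone and bone chips. In ESC-OB, where the numbers showed no pairing of the libraries, it gave *Acan* -1.37 (adjusted p = 0.0176), called lower as with DESeq2 (-1.18), no filter (-1.17) and the joint fit (-1.20). *Hapln1* in ESC-OB had an adjusted p of 0.0130 without the filter, 0.0174 with DESeq2 and 0.103 in the joint fit, and no fold is given on ESC counts of 0. The causes were not tested. Depth limits *Matn1*, *Matn3*, *Sox5*, *Lect1* and *Hapln1*, which had under 40 counts in some GFP+ (hi) libraries.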
